A study of Mus musculus with 12 samples.

Results

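The 10 genes described here encode the postsynaptic scaffold proteins of the Dlg (Dlg1 to Dlg4), Shank (Shank1 to Shank3) and Homer (Homer1 to Homer3) families. They were chosen by symbol from the 55471 Ensembl gene IDs of the count table, with earlier results of these data known. All 10 passed the filter on low counts and were among the 19492 genes tested. They were measured in ventral CA1, the output field of the hippocampus, in acute slices that had been tetanized, tetanized with stimulation of the basolateral amygdala, or left at basal stimulation. The question of the series is how late long-term potentiation, alone or joined by amygdala activity, is accompanied by gene expression in this field.

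In excitatory synapses the postsynaptic density is a protein sheet under the receptor-bearing membrane. Dlg proteins bind the tails of NMDA receptors, potassium channels and adhesion molecules and, through the auxiliary subunits of AMPA receptors, hold these receptors in place. Guanylate kinase-associated proteins (Dlgap) link Dlg to Shank, and Homer binds Shank as well as group I metabotropic glutamate receptors and intracellular calcium channels. Homer1 is unusual in that neuronal activity is known to induce a short form that lacks the coiled coil by which the long Homer proteins form multimers.

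The mice were C57BL/6J males, wild-type in genotype and aged 5 to 7 weeks, each library held tissue of 6 pooled slices frozen 30 min after stimulation, and there were 3 libraries in each of 4 groups. STET slices received strong tetanization, given as 3 trains of 100 pulses at 100 Hz, which is used to induce late long-term potentiation. STET_S100 slices received 100 Hz stimulation of the basolateral amygdala with the tetanization, and STET_S200 slices are labelled with 200 Hz, although the bracket in the same label repeats 100 Hz. Control slices carried the electrodes and received basal stimulation only. Each mouse gave 4 slices, 1 to each group, so the groups share mice, and every slice was a cut and incubated preparation, Control included. The labels do not say which libraries hold tissue of the same mice, so p-values measure the spread between these pooled libraries.

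Library totals lay between 36.3 and 52.8 M counts. Neuronal RNA was plentiful in every library, with 5 markers of neurons summing to between 7934 and 8671 CPM (counts scaled to a library total that is adjusted by the trimmed mean of M values). All 5 markers of CA1 pyramidal neurons were detected throughout, the lowest being Spink8 at 9.21 to 15.4 CPM. Markers of dentate granule cells were present as well and varied between libraries. They summed to 62.6 to 86.8 CPM in STET and 57.9 to 92.2 CPM in STET_S100. The sums were 23.7 to 106 CPM in STET_S200 and 33.2 to 93.5 CPM in Control. RNA of other tissue differed between libraries: 11 choroid plexus markers summed to 292 to 2518 CPM in STET, 27.2 to 3177 CPM in STET_S100, 12.6 to 58.2 CPM in STET_S200 and 224 to 1360 CPM in Control. The fatty acid carrier Fabp4, a marker of tissue outside the brain, exceeded 1 CPM in STET 3, STET_S100 1, STET_S200 2, STET_S200 3 and Control 3. The other 7 libraries were also analysed alone. Of 3 activity-regulated genes used to check the stimulation, Arc, an endosomal regulator of AMPA receptors, averaged 258 ± 57.9 CPM in STET, 270 ± 117 CPM in STET_S100, 228 ± 43.6 CPM in STET_S200 and 96.7 ± 17.6 CPM in Control (SD, n = 3 each). Every stimulated library exceeded every Control library in Arc, yet no gene of the table passed an adjusted p of 0.05 in any of the 7 comparisons with edgeR's quasi-likelihood test, where DESeq2 called 1 to 16 genes, none of them a scaffold gene, and edgeR without a filter on low counts 16 to 98.

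None of the 10 scaffold genes passed the test in any comparison. Against Control, 0 of 10 members passed in STET, in STET_S100, in STET_S200 and in the mean of the 3 stimulated groups, where 0% of the 19492 tested genes passed in each case. At an unadjusted p of 0.05 the number of members was again 0 in these 4 comparisons, where 3.50%, 5.16%, 5.92% and 5.47% of all tested genes lay below it. With 10 members, 0 is near these shares. DESeq2, limma-voom and every other alternative fit also called 0 members. With the mean of the stimulated groups, the 95% intervals of the fold changes over Control spanned at their widest 0.888, the lower bound of Homer2, to 1.20, the upper bound of Homer3. For single groups over Control the bounds reached 0.851, for Homer1 in STET, and 1.28, for Homer3 in STET_S100. In bulk tissue of this kind, fewer cells of a type and less RNA per cell cannot be told apart.

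**Figure D1:**
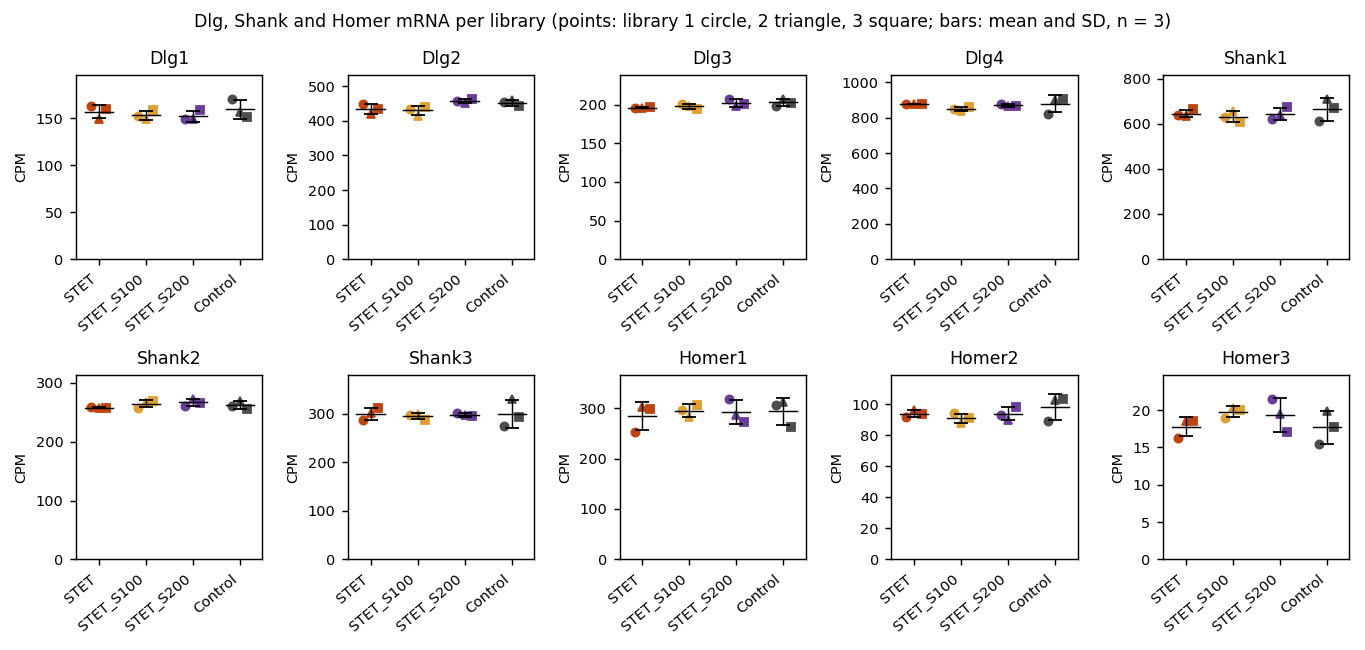
CPM of each scaffold gene (vertical axis, from 0) in the 3 libraries of STET, STET_S100, STET_S200 and Control; points are libraries and bars the mean and SD. The group means lie close together in every panel. In the panels of Dlg1, Dlg4, Shank1, Shank3 and Homer2 the Control points are more widely spread than those of each stimulated group.

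Levels were compared between genes per kilobase of exon union, the total length covered by a gene's exons. Dlg4, which encodes PSD-95, the core scaffold of the excitatory synapse, had the highest level at 65.5 ± 1.83 CPM per kb (SD, n = 12 libraries). Shank1, a scaffold of mature spines, followed at 61.5 ± 2.84 CPM per kb, and the ranges of these 2 genes over the 12 libraries overlapped. Dlg3, which encodes SAP102, stood at 34.2 ± 0.750 CPM per kb and Shank3, the scaffold altered in Phelan-McDermid syndrome, at 32.4 ± 1.51 CPM per kb. Their ranges also overlapped, and lay apart from those of the genes above and below. Dlg2, which encodes PSD-93, had 27.3 ± 0.946 CPM per kb, Shank2 24.4 ± 0.545 CPM per kb and Homer1 24.3 ± 1.72 CPM per kb. The Homer1 range of 21.0 to 26.6 CPM per kb overlapped those of both Dlg2 and Shank2, which did not overlap each other. The lowest levels were those of Dlg1, which encodes SAP97, at 14.5 ± 0.642 CPM per kb, Homer2 at 7.46 ± 0.398 CPM per kb and Homer3 at 5.42 ± 0.512 CPM per kb. Homer3 is best known from the cerebellum, where Purkinje cells carry it. This order depends on the length used. With the longest annotated transcript Dlg4 at 137 CPM per kb lay apart from Shank1 at 65.8, and Dlg2 at 56.8 and Homer1 at 51.0 CPM per kb came above Shank3 and Dlg3.

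**Figure D2:**
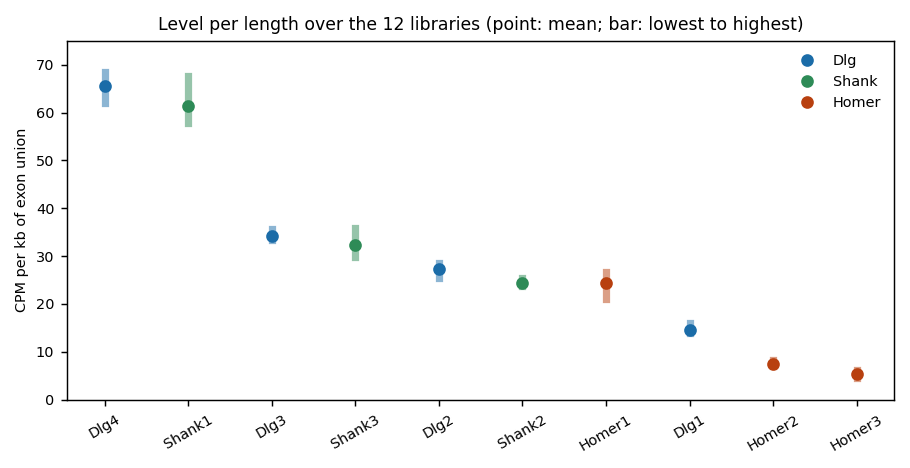
CPM per kb of exon union (vertical axis, from 0) of the 10 genes in order of level; points are means and bars run from the lowest to the highest of the 12 libraries, coloured by family. Dlg4 and Shank1 stand above 57 CPM per kb, while Homer2 and Homer3 stay below 8.2.

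Within each family the make-up was nearly the same in the 4 groups. Dlg4 held 46.9% of the summed Dlg level per kb in STET, 46.2% in STET_S100, 46.0% in STET_S200 and 46.1% in Control. Shank1 held 52.1%, 51.5%, 51.8% and 52.6% of the summed Shank level in STET, STET_S100, STET_S200 and Control. Homer1 held 65.3% of the summed Homer level in STET, 65.6% in STET_S100, 65.1% in STET_S200 and 65.4% in Control. The spread between libraries differed among the scaffold genes. Their coefficients of variation over all 12 libraries ran from 2.19% for Dlg3 and 2.24% for Shank2 to 7.06% for Homer1 and 9.46% for Homer3. Among the 10448 genes with a mean log2 CPM of at least 3, the median was 4.95% and the middle 50% lay between 3.73% and 6.82%. Dlg3, Shank2, Dlg4 and Dlg2 were thus below the lower quartile, and both Homer1 and Homer3 above the upper quartile. Homer3 had the fewest reads, 624 to 971 per library, against 31650 to 44202 for Dlg4.

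Dlg4 had 878, 879 and 875 CPM in STET, 852, 838 and 860.2 CPM in STET_S100, 878, 866 and 865 CPM in STET_S200 and 822, 902 and 908 CPM in Control. STET libraries were almost identical to each other and fell inside the Control range. The log2 fold change of STET over Control was 0.00 ± 0.04 (SE), with an interval of the fold change from 0.944 to 1.06 (adjusted p = 1.00, edgeR). All 3 STET_S100 libraries lay below all STET libraries in Dlg4, at a log2 fold change of -0.05 ± 0.04, and below all STET_S200 libraries, and neither difference passed the test.

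Dlg2 had 449.6, 421 and 435 CPM in STET, 434, 415 and 442 CPM in STET_S100, 457, 453 and 465 CPM in STET_S200 and 454, 460.4 and 443 CPM in Control. The STET_S200 libraries were the highest of the stimulated ones and overlapped Control. Over STET_S100 the log2 fold change of STET_S200 was 0.09 ± 0.04 with an interval of the fold change from 1.01 to 1.13 (unadjusted p = 0.0296, adjusted p = 0.957, edgeR), the lowest unadjusted p of any member in any comparison. Over STET it was 0.08 ± 0.04 (adjusted p = 0.938, edgeR), and STET_S100 lay below Control without overlap at -0.07 ± 0.04 (adjusted p = 0.902, edgeR). The Dlg2 values went against choroid plexus RNA, with a Pearson r of -0.65 between log2 CPM and the choroid score over the 12 libraries, which share that tissue. With this score as a covariate the log2 fold change of Dlg2 between STET_S200 and STET_S100 was 0.06, within 1 SE of the main value. All STET_S200 libraries were poor in choroid plexus RNA, so score and group cannot be fully told apart. The part of this RNA in the Dlg2 difference was not tested.

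Dlg3 had 195, 196 and 197 CPM in STET, 200.5, 199 and 194 CPM in STET_S100, 208, 198 and 201 CPM in STET_S200 and 199, 208 and 202 CPM in Control. All STET libraries were below all Control libraries, by a log2 fold change of -0.05 ± 0.03 (adjusted p = 1.00, edgeR). The difference amounts to 196 ± 0.803 CPM in STET against 203 ± 4.64 CPM in Control. Dlg1 had 163, 149.6 and 159.5 CPM in STET, 153, 149 and 159 CPM in STET_S100, 149, 149 and 159 CPM in STET_S200 and 171, 157 and 151 CPM in Control, and the groups overlapped in each comparison.

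Shank1 had 639.6, 633 and 663 CPM in STET, 629.7, 657 and 607 CPM in STET_S100, 623, 638 and 674 CPM in STET_S200 and 610.5, 711 and 669 CPM in Control. Control held nearly the lowest and also the highest library. The log2 fold change of the mean of the stimulated groups over Control was -0.05 ± 0.04 (adjusted p = 0.964, edgeR). Shank2 had 258, 257 and 257 CPM in STET, 257, 267 and 269 CPM in STET_S100, 261, 273 and 266 CPM in STET_S200 and 260.3, 269 and 256 CPM in Control. Its STET_S200 libraries all exceeded its STET libraries, by a log2 fold change of 0.05 ± 0.04 (adjusted p = 0.938, edgeR). Shank2 also followed an index of the balance between long and short transcripts in a library, with a Pearson r of 0.78 over the 12 libraries. The part of this balance in the comparison was not tested.

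Shank3 had 286, 302 and 311 CPM in STET, 297.7, 299 and 287 CPM in STET_S100, 302, 296 and 295 CPM in STET_S200 and 274, 330.3 and 292 CPM in Control. The stimulated libraries all lay inside the Control range. Its log2 fold change over Control was 0.00 ± 0.05 in STET, -0.02 ± 0.05 in STET_S100 and -0.01 ± 0.05 in STET_S200 (adjusted p = 1.00, 0.976 and 0.992, edgeR).

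**Figure D3:**
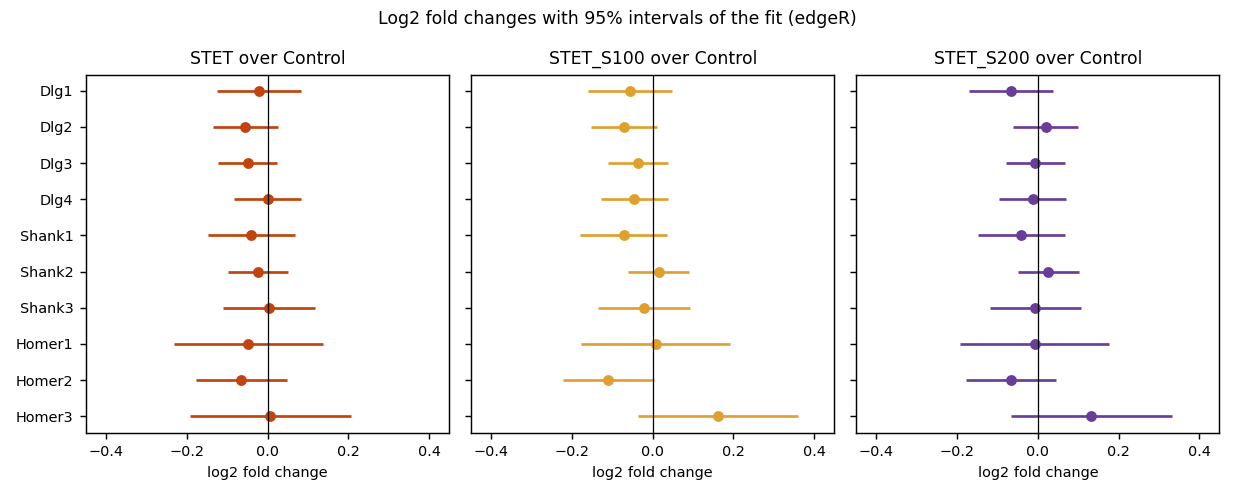
Log2 fold change of each gene over Control (horizontal axis) in STET, STET_S100 and STET_S200; points are estimates and lines 95% intervals of the edgeR fit. Each interval includes 0, the Dlg and Shank intervals are shorter than that of Homer1, and the Homer3 points of STET_S100 and STET_S200 lie farthest to the right.

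Homer1 is the member for which induction by activity is described, and its sequences show why a count per gene is a limited readout of it. The gene makes a short form, Homer1a (transcript Homer1-204 of GENCODE M21, GRCm38, chromosome 13, with 186 codons), and long forms such as Homer1-203 with 366 codons. The 2 transcripts share their first 175 codons and then part, and the short form ends 11 codons later. The stretch around that point is shown for both, with shared bases in lower case and the codons from the first difference in capitals, up to the stop codon of the short form.
Homer1 short form: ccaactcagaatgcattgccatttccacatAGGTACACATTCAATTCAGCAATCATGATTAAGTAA
Homer1 long form: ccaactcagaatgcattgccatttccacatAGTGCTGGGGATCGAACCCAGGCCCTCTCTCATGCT
Of the 11.976 kb of Homer1 exons, 4.687 kb belong to the short but not the long transcript, 2.026 kb to the long but not the short one, and 1.026 kb to both. The deposited value adds all of these reads, so the forms cannot be told apart here.

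The Homer1 promoter is shown because activity-regulated promoters often carry cAMP response elements, whose core is TGACG. RefSeq windows of 250 bases before to 50 bases after the start (GRCm38.p6) were found for 8 of the 10 genes, Shank1 and Shank2 being the others. TGACG was searched on both strands, that is, together with CGTCA. Homer1 has 2 windows, and the one that holds the motif, chr13:93303507-93303806 on the plus strand, is shown 5′ to 3′ with each TGACG in capitals.
Homer1 promoter: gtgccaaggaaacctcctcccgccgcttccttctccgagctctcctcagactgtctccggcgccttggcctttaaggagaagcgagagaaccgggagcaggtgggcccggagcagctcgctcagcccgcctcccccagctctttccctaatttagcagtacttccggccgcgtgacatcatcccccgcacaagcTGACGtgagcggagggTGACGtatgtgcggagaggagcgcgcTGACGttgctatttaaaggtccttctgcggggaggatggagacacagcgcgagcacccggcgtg
It holds 3 copies. Of all 32851 windows in the table, 1.03% hold 3 or more and 20.8% hold at least 1. Of the 18 windows of the scaffold genes, 3 hold the motif, the other two belonging to Dlg3 and Dlg4. A match describes the letters of the window and not a bound site.

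Homer1 had 252, 302 and 298 CPM in STET, 296, 282 and 307 CPM in STET_S100, 318, 286 and 273 CPM in STET_S200 and 306, 313 and 263 CPM in Control. The groups overlapped fully, and STET 1 was the lowest of the 12 libraries. Against Control the log2 fold change was -0.05 ± 0.08 in STET, 0.01 ± 0.08 in STET_S100 and -0.01 ± 0.08 in STET_S200 (adjusted p = 1.00, 0.997 and 0.993, edgeR). For the mean of the stimulated groups the interval of the fold change ran from 0.891 to 1.10. In the same libraries the log2 fold changes of the stimulated mean over Control were 1.38 ± 0.29 for Arc, 1.59 ± 0.36 for the transcription factor Npas4 and 0.69 ± 0.20 for the transcription factor Fos, none of which passed (adjusted p = 0.845 each, edgeR).

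Per library, the log2 ratio of Homer1 to Arc averaged 0.25 ± 0.42 in the 9 stimulated libraries and 1.62 ± 0.15 in the 3 Control libraries (SD). For Homer1 to Npas4 the ratio was 0.67 ± 0.54 in stimulated and 2.21 ± 0.24 in Control libraries, and for Homer1 to Fos 0.22 ± 0.32 in stimulated and 0.90 ± 0.11 in Control libraries. These ratios were chosen with the Arc, Npas4 and Fos values known and are given as a description. An exact permutation of the libraries was run on them, but its p-values are left out for that reason.

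**Figure D4:**
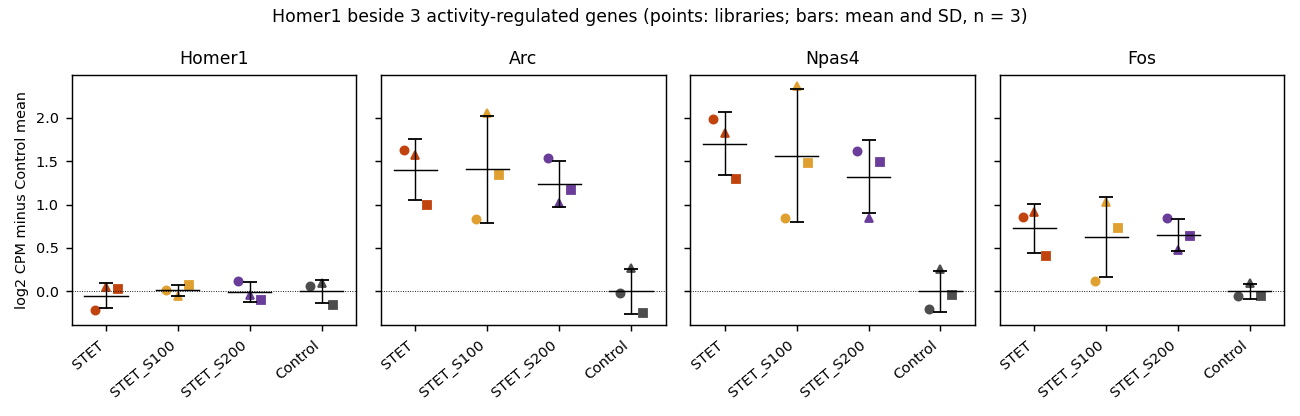
Log2 CPM minus the Control mean (vertical axis) of Homer1, Arc, Npas4 and Fos in the 3 libraries of each group; points are libraries and bars the mean and SD. Homer1 stays around 0 in all groups, while every stimulated library is above 0 in Arc, Npas4 and Fos.

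Homer2, a Homer protein with the coiled coil of the long forms, had 91.6, 96.1 and 93.7 CPM in STET, 93.9, 88.1 and 90.8 CPM in STET_S100, 93.1, 90.0 and 98.1 CPM in STET_S200 and 88.8, 103 and 103 CPM in Control. Control 1 lay among the lowest libraries and the other Control libraries were the highest of all. The log2 fold change of STET_S100 over Control was -0.11 ± 0.05 (unadjusted p = 0.0551, adjusted p = 0.902, edgeR).

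Homer3 had 16.3, 18.5 and 18.5 CPM in STET, 18.9, 20.3 and 20.1 CPM in STET_S100, 21.5, 19.5 and 17.1 CPM in STET_S200 and 15.5, 19.9 and 17.7 CPM in Control. All STET_S100 libraries exceeded all STET libraries, with a log2 fold change of 0.15 ± 0.09 (adjusted p = 1.00, edgeR). Over Control the log2 fold change was 0.16 ± 0.09 in STET_S100, with an interval of the fold change from 0.975 to 1.28, and 0.13 ± 0.09 in STET_S200 (adjusted p = 0.902 and 0.866, edgeR). On the opposite strand the RNA helicase gene Ddx49 shares 874 bp of exon with the 3.44 kb of Homer3. Ddx49 averaged 24.8 ± 1.21 CPM in STET, 27.1 ± 0.918 CPM in STET_S100, 26.0 ± 1.51 CPM in STET_S200 and 24.5 ± 1.83 CPM in Control. The libraries were directional, but the strand setting of the counting is not given in the sources used here, and the part of Ddx49 reads in the Homer3 values was not tested. The other genes that share exon bases with Dlg2, Shank1, Shank3 or Homer2 had at most 2.84 CPM.

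The amygdala groups were compared with STET and with each other, comparisons that share libraries with those above. In STET_S100 against STET, 1 member was higher without overlap of the groups (Homer3) and 1 was lower (Dlg4), where 4.73% of all tested genes were higher and 4.87% lower in that way. In STET_S200 against STET, Dlg2, Dlg3 and Shank2 were higher without overlap, 3 of 10 members against 6.22% of tested genes, and 0 were lower against 5.76%. In STET_S200 against STET_S100, Dlg2 and Dlg4 were higher without overlap against 4.57% of tested genes, and 0 were lower against 4.77%. In each of these 3 comparisons 0 members and 0% of tested genes passed the adjusted threshold. At an unadjusted p of 0.05 the members numbered 0, 0 and 1 of 10, where 3.16%, 4.56% and 5.20% of all tested genes lay below it. Choroid plexus markers did not overlap between STET_S200 and STET, nor between STET_S200 and Control, while they overlapped between STET_S200 and STET_S100. The microglial markers summed to 133 to 147 CPM in STET, 125 to 149 CPM in STET_S100, 116 to 139 CPM in STET_S200 and 142 to 155 CPM in Control, with an overlap among the 3 stimulated groups and none between STET_S200 and Control. With the choroid score as a covariate 0 members were called.

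Against Control, the members without overlap were 0 higher and 1 lower (Dlg3) in STET, against 4.69% and 4.2% of tested genes, and 0 higher and 1 lower (Dlg2) in STET_S100, against 5.19% and 4.93%. In STET_S200 no member lay apart from Control, where 5.73% of tested genes were higher and 5.28% lower. For the 9 stimulated libraries against the 3 of Control, 0 members lay apart, where 0.549% of tested genes were higher and 0.441% lower. These counts are close to those of all genes. The median log2 fold change of the 10 members was -0.03 in STET, -0.04 in STET_S100, -0.01 in STET_S200 and -0.03 in the stimulated mean, against medians of 0.00 over all tested genes.

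In part of the comparisons direction depended on the Control libraries. In the stimulated mean 8 of 10 members had a negative log2 fold change over Control, all except Shank2 and Homer3. Without Control 2 the number was 4, without Control 1 it was 6, and without Control 3 it was 8. For STET_S200 it was 7, and 2 without Control 2 but 6 without Control 1 or Control 3. For STET and STET_S100 it was 7 each, and stayed between 6 and 9 in the alternative fits. Control 2 lay above the mean of the 12 libraries in 10 of 10 members and was the highest library for Dlg3, Shank1 and Shank3, while Control 1 was the lowest for Dlg4, Shank3 and Homer3. Control 2 also had the highest sum of the neuronal markers, 8671 CPM, and the lowest sum of the oligodendrocyte markers, 2332 CPM, whereas Control 1 had the lowest neuronal sum, 7934 CPM. Camk2a was the largest part of the neuronal sums, with 3980 CPM in Control 2, 3330 CPM in Control 1 and a median of 3474 CPM. Snap25, Syt1 and Slc17a7 had 1607, 1623 and 1258 CPM in Control 2, near their medians of 1605, 1641 and 1260 CPM. In Control 1 these 3 genes had 1556, 1642 and 1205 CPM. The part of these marker differences in the scaffold values was not tested.

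**Figure D5:**
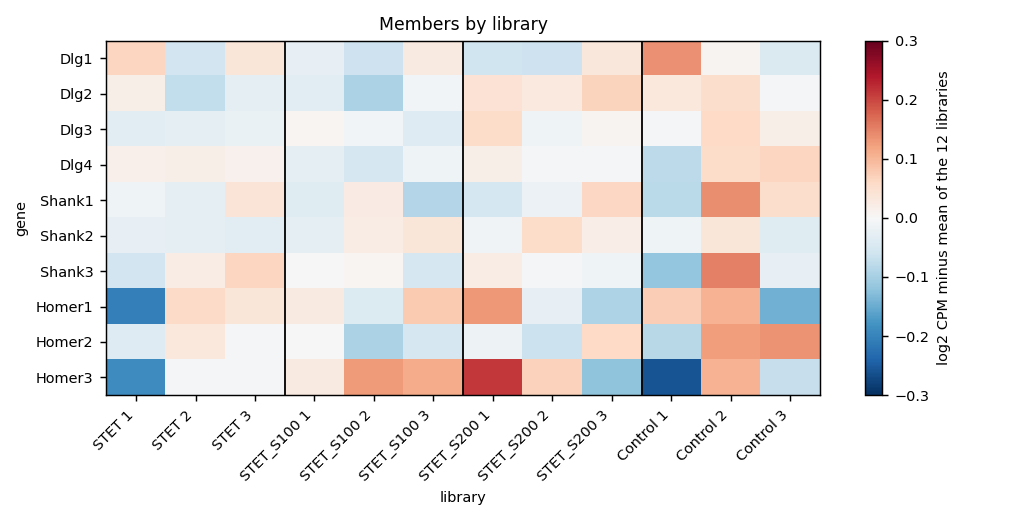
Log2 CPM minus the mean of the 12 libraries (colour scale) for each gene (rows) in each library (columns, in the order STET, STET_S100, STET_S200, Control). Control 2 is the one column above the mean in all 10 genes, and the largest deviations are in Homer1 and Homer3.

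The proteins that bind these scaffolds were examined as 4 lists, and other synaptic scaffolds as a further list. No gene of any list passed the test in either direction in any comparison. Of 14 membrane proteins that bind Dlg, 5 had positive and 9 negative log2 fold changes in the stimulated mean over Control, with a median of -0.02. The 2 with the largest changes were Cacng3, an auxiliary subunit of AMPA receptors, with 34.4 ± 2.10 CPM in stimulated and 38.0 ± 2.31 CPM in Control libraries, and Grin2b, an NMDA receptor subunit, with 862 ± 34.4 CPM in stimulated and 911 ± 31.6 CPM in Control libraries. Their log2 fold changes were -0.14 ± 0.05 and -0.08 ± 0.03 (adjusted p = 0.845 and 0.889, edgeR).

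Of 15 cytoplasmic partners of Dlg, 4 were positive and 11 negative, and the largest were Cit, which encodes citron kinase, at -0.13 ± 0.05, and Akap5, an anchor of protein kinase A, at -0.09 ± 0.04 (adjusted p = 0.845 and 0.889, edgeR). Of 13 Shank partners, which share Dlgap1 to Dlgap4 and Lrrc7 with the cytoplasmic list, 5 were positive and 8 negative. Lrrc7, which encodes densin, was at -0.09 ± 0.04 and Arhgap44 at -0.05 ± 0.04. Of the 13 Shank partners, 0 were positive in STET, 6 in STET_S100 and 11 in STET_S200, where 49.9%, 50.8% and 50.6% of all tested genes were positive. Without 1 Control library these counts were 1 to 2 in STET, 5 to 7 in STET_S100 and 7 to 10 in STET_S200, where 7 was the value without Control 3. In the same order of groups, 3, 6 and 9 of 14 membrane partners of Dlg and 3, 3 and 8 of 15 cytoplasmic partners were positive. For the Homer partners the counts were 2, 2 and 3 of 9, and for the other scaffolds 4, 3 and 8 of 13. The 3 comparisons share the Control libraries.

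Of 9 Homer partners, 3 were positive and 6 negative in the stimulated mean. Dnm3, a dynamin of spines, and Ryr2, a calcium release channel, each had a log2 fold change of -0.08 ± 0.06. Among 13 other scaffolds, 4 were positive and 9 negative. Without 1 Control library, the positive genes in the stimulated mean numbered 4 to 7 of 14 membrane and 2 to 7 of 15 cytoplasmic partners of Dlg. In both lists 7 was the value without Control 2. The counts were 3 to 5 of 13 Shank partners, 3 to 4 of 9 Homer partners and 3 to 6 of 13 other scaffolds. All tested genes were split almost evenly between positive and negative in the stimulated mean. Magi3 had 45.4, 45.1 and 44.1 CPM in STET, 45.3, 42.4 and 46.6 CPM in STET_S100, 44.7, 45.9 and 45.4 CPM in STET_S200 and 49.1, 49.8 and 48.8 CPM in Control. All 9 stimulated libraries were below all Control libraries in Magi3, at -0.13 ± 0.04 (adjusted p = 0.845, edgeR). Of all tested genes 0.441% were lower in this way, and Magi3 was named for its large change within the list. Dlg5, a more distant Dlg relative, had 62.9 ± 2.46 CPM in stimulated and 68.6 ± 2.90 CPM in Control libraries (adjusted p = 0.845, edgeR).

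The genes whose log2 CPM followed each member most closely over the 12 libraries were taken from 10447 genes, as a description of libraries that share depth and tissue balance. Shank3 had the closest neighbour, Ddn, which encodes the postsynaptic protein dendrin, with a Pearson r of 0.95, followed by Mpc2 at 0.90 and Camk2a, a kinase subunit of the postsynaptic density, at 0.89. Dlg2 was followed by Maneal at 0.93, Ap3s2 at 0.91 and Bri3bp at 0.90. Homer1 was followed by Il6st at 0.92, Btbd8 at 0.91 and Larp7 at 0.91, and Shank1 by Dscaml1 at 0.91, Fer at 0.89 and Gm35040 at 0.85. For Dlg3 they were R3hcc1 and Map3k10, for Dlg4 Hmgcll1, Fads6 and Als2cl, and for Dlg1 Fnbp1l, Plekho1 and Rtl5. For Shank2 they were Aldoa, Mapk14 and Col25a1, for Homer2 4930402H24Rik, Calm3 and Gpr17, and for Homer3 Slmap, Fgd4 and Stim2. Those of the last 6 genes had r between 0.84 and 0.89. All these neighbours were picked as the highest of 10447 values over 12 libraries, which favours high r, and no test was run on them. Among the members themselves, Dlg4 and Homer2 had a Pearson r of 0.81 and Shank1 and Shank3 of 0.72, while Dlg1 and Homer3 had -0.73.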

How the data were processed

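The deposited values were raw read counts per Ensembl gene ID for 12 libraries, per the labels made from directional poly(A) libraries with paired reads of 150 bp. Tools listed in the submitters' processing notes are STAR 2.7.1a, HTSeq 0.11.2, Trimmomatic 0.39, limma and R 4.0.2. Their settings, the build, the annotation and the strand of counting were not given in the sources used. Symbols and exon lengths came from GENCODE M21 (GRCm38).

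Counts, with trimmed mean of M values (TMM) scaling, were tested with edgeR 4.0.16 in R 4.3.3 (quasi-likelihood F test, robust dispersion, 1 fit of all 12 libraries with group as the only term). The filterByExpr filter used a count minimum of 10 and a total of at least 15, and Benjamini-Hochberg adjustment ran over 19492 genes in each of 7 comparisons with a threshold of 0.05. Intervals are 95% and use the standard error of the fit. Reads are not independent molecules, and counting error is therefore smaller than the true spread. Within groups, the chi-square per degree of freedom between 2 libraries was 5.06 to 20.6, beyond sampling noise, and the biological coefficient of variation was 8.25%. The tests were tried on simulated data.

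Alternatives were 2 other scalings, other filters, DESeq2 1.42.0, limma-voom (limma 3.58.1), no robust dispersion, a replicate block, a fit of only the groups compared, leaving out each library, the 7 libraries low in Fabp4, a choroid score as covariate, and a threshold of 0.1. The members and lists were chosen with earlier results of these data known. Named genes are all members, the 2 genes of each list with the largest change in the stimulated mean, the 3 genes most like each member, and Arc, Npas4 and Fos. For Dlg3, 1 of these 3 is not reported here.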

Additional observations from a re-analysis of the deposited data

How the results depend on the processing

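No member passed the threshold under any alternative in any comparison. Of 1600 alternative values of the 70 member fold changes, 1546 lay within 1 SE of the main value and 54 beyond it, and 99 changed sign. Some alternatives, such as leaving out a library of a group not compared, can hardly move a fold change. Of the 70 fold changes, 35 kept their sign in all alternatives. The smallest adjusted p of any member was 0.388, for Dlg2 in STET_S200 against STET_S100 without STET_S100 3, where the main value was 0.957 and the highest over the alternatives 1.00.

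Counts of all genes called were 0 in the main fit. Without a filter they were 16 for STET, 42 for STET_S100, 69 for STET_S200 and 52 for the stimulated mean against Control, 22 for STET_S100 and 34 for STET_S200 against STET, and 98 for STET_S200 against STET_S100. With DESeq2 they were 1, 3, 4, 7, 1, 16 and 5 in the same order. Fitting only the compared groups gave 1 for STET_S100 against Control, and the 7 libraries low in Fabp4 gave 4 for the stimulated mean. Leaving out 1 library gave 0 to 1 for STET_S100 against Control (1 without STET_S200 1), for the stimulated mean (1 without STET_S200 3) and for STET_S100 against STET (1 without Control 3), 0 to 2 for STET_S200 against Control (2 without STET_S200 3) and 0 to 8 for STET_S200 against STET_S100 (8 without STET_S100 3). The cause of these differences was not tested, and no fit of the compared groups alone exists for the stimulated mean.

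The deviations of same-numbered libraries had a Pearson r of -0.32 to 0.46 (7 of 18 pairs above 0.1), against -0.52 to 0.43 for different numbers (11 of 36 above 0.1). The medians were 0.03 and -0.02. Every other group holds a library of the same number, so part of the best matches with the own number arises without pairing. As a hint from the data, 7 of 12 libraries correlated best with their own number, but not every pair exceeded 0.1 and the labels give no pairing, so the numbers were not taken to pair the libraries. The replicate block called 0 genes and 0 members in each comparison.

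With the longest transcript as length, levels in CPM per kb were 137 for Dlg4, 65.8 for Shank1, 56.8 for Dlg2, 51.0 for Homer1, 40.4 for Shank3, 39.8 for Dlg3, 29.2 for Shank2, 25.4 for Dlg1, 8.58 for Homer2 and 7.15 for Homer3. Homer3 has the fewest reads and the widest intervals of the members.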
